A study of Mus musculus with 2 samples.

Results

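The genes described here encode ATP-dependent chromatin remodelling complexes of the mouse and proteins that share their domains. They were chosen by name: every gene whose symbol starts with Smarc or Arid, every Chd, Brd or Mta gene followed by a number, and Ino80, Ep400, Srcap, Bptf, Rbbp4 and Rbbp7. The rule found 51 genes of the 26883 named genes on the array, and they were covered by 144 probes. Of these 51, 49 were measured, meaning that at least 1 probe was well above background on both arrays, and 2 (Smarca1 and Arid3c) were not. The name rule also took in a pseudogene, Smarca5-ps, and a non-coding transcript, Chd3os. It further took in ARID and bromodomain proteins that are not parts of remodelling complexes.

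Transcripts were measured in a mouse glioblastoma stem cell line, grown as neurospheres in serum-free medium with EGF and bFGF. The line came from brain tumours that arose de novo through the SB transposon, so both groups share that origin. Both groups also carry an integrated lentivirus: the control group a hairpin with no target, and the knockdown group a hairpin against Stat5b, a transcription factor that acts downstream of cytokine and growth factor receptors. Each group was 1 array of 1 stably transduced culture of the same line, with 1 colour (Cy3) and Agilent probes, and the comparison asks how lowering Stat5b alters transcript levels. There were no replicates, so no test could be made and every difference below is a description of 2 arrays that cannot be set against the spread between cultures.

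Remodelling complexes use the energy of ATP to slide, evict or exchange nucleosomes, and so set which stretches of DNA other proteins can reach. They fall into families by their ATPase: SWI/SNF (also called BAF), ISWI, CHD and INO80. The BAF complex takes 1 subunit from each of several sets of related genes, and the choice of paralogue changes as neural progenitors leave the cell cycle and become neurons. Several BAF subunits are tumour suppressors, and others are needed by particular cancers.

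All values compare the knockdown array with the control array. A probe's level is log2 of its processed signal minus the array's 75th percentile, which was a signal of 493.2 in control and 493.6 in knockdown. A probe that is well above background on an array is called detected there. A gene's difference is the mean over its measured probes of knockdown minus control, on the log2 scale. The value after ± is the error that the scanner software attaches to that difference, which covers neither probe choice nor culture. For comparison, the SD between replicate spots of 1 probe was 0.0564 and the SD between different probes of 1 member was 0.272. Signals are given in the order control, knockdown, to follow 1 probe from array to array, and levels of different probes are not comparable. The targeted gene followed its label: the brighter Stat5b probe read 1991 in control and 498 in knockdown, or 25% of control. A dimmer Stat5b probe read 14.7 and 7.49, the second of which was no longer well above background.

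By the 2-fold rule 3 of 49 measured members were higher in knockdown (6.12%), Smarca2, Arid3a and Chd3os, beside 3.67% of all 16353 measured genes. With normexp, another background correction, Smarca2 (0.94) and Chd3os (0.99) fell short, which left 1 member beside 1.16% of all genes. Lower by the same rule was 1 member, Brd9 (2.04%), beside 2.41% of all genes. At 1.5-fold, 4 members were higher (8.16%), with Smarcd1 added, beside 11.0% of all genes, and 2 were lower (4.08%), with Smarcd3 added, beside 8.42%. The shares at 2-fold are near the background, so the counts are no result about the group.

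The remaining 43 measured members differed by less than 1.5-fold. The median member differed by -0.02 and the middle 2 quartiles of the members lay between -0.12 and 0.15, against -0.24 and 0.28 for all genes. Within 0.25 of 0 were 34 members (69.4%), against 48.6% of all genes. Among genes with probes of a signal of at least 100 on both arrays the shares were 68.8% and 51.2%, and among genes measured by several probes 75% and 51.7%. Among genes with 1 measured probe the shares were 44.4% of 9 members and 46.2% of all such genes. The spread of the members was thus narrower than that of all genes except among genes with 1 probe, and this was not tested.

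**Figure D1:**
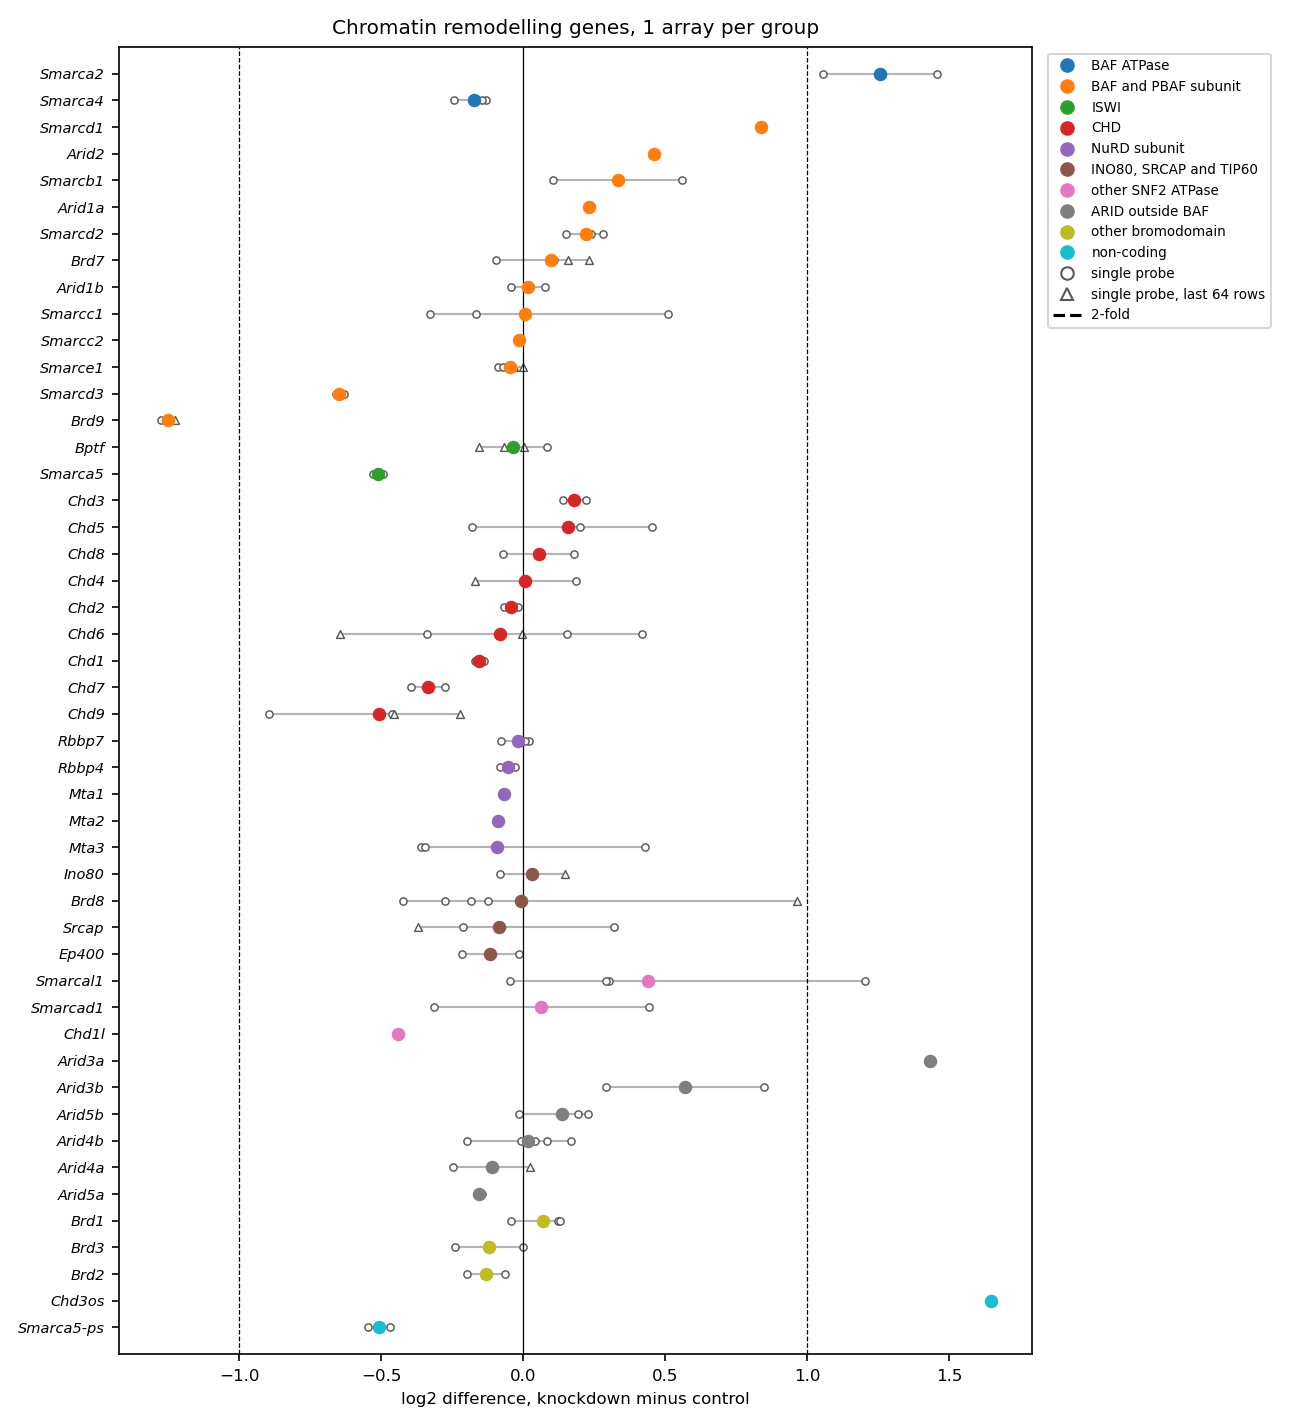
Log2 difference, knockdown minus control, of 48 of the 49 measured members, grouped by complex. Filled points are gene means, open symbols single probes (triangles for the array's last 64 rows), and dashed lines mark 2-fold; the reader should see Smarca2, Arid3a and Chd3os to the right of the upper line and Brd9 to the left of the lower one.

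**Figure D2:**
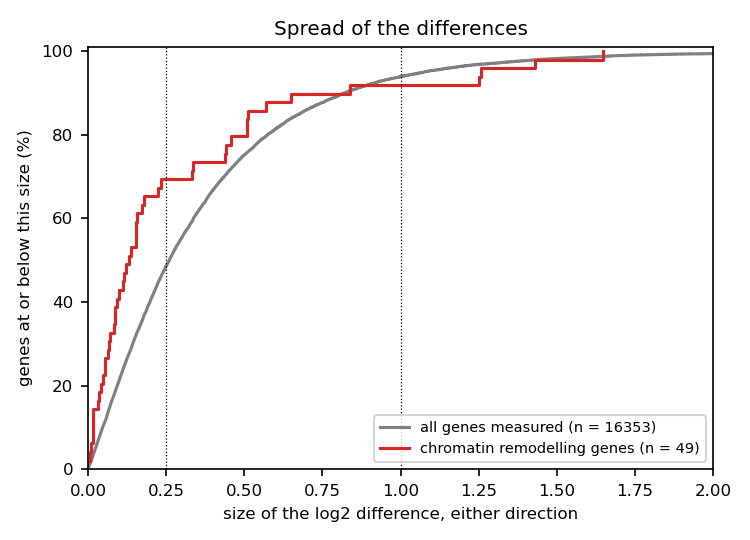
Share of genes, in percent, whose log2 difference in either direction is at or below the size on the horizontal axis, for the 49 measured members and all 16353 measured genes. At a size of 0.25 the curves stand at 69.4% and 48.6%, and past 1 they lie close together.

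The central ATPase of BAF is either Smarca2 (BRM) or Smarca4 (BRG1), and the transcripts of this pair differed in direction. Smarca2 was 2.39-fold higher on the knockdown array (1.26 ± 0.15). The array holds 3 probes for it, of which 1 was designed on transcript variant 1 and 2 on variant 2. The first 30 of the 60 bases of each are shown because the readings rest on these stretches.
Smarca2 probe on variant 1: ctgccctcctggattatcaaggatgacgcc
Smarca2 probe A on variant 2: tccagtaatttccaagaatgtggtgttggt
Smarca2 probe B on variant 2: ccgtgttaccaatgtgtatggtctccttct
Probe A read 82.7 in control and 227 in knockdown, a difference of 1.46. Probe B read 348 and 725, a difference of 1.06. The variant 1 probe read 6.31 and 16.1 and was well above background in knockdown alone, which puts it at least 1.33-fold higher. For a probe detected on 1 array, the bound sets its level there against the higher of its own reading on the other array and the lowest level counted as above background on that array. For Smarca2 the latter was higher. All 3 probes therefore read higher with the Stat5b hairpin. Of all measured genes, 321 (1.96%) had a higher difference than Smarca2.

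Smarca4 differed by -0.17 ± 0.12. Its 3 probes read 146, 2143 and 25858 in control and 133, 1812 and 23414 in knockdown, with differences from -0.24 to -0.13. Every Smarca4 probe was slightly lower on the knockdown array, and each differed less than any Smarca2 probe. The difference of Smarca2 exceeded that of Smarca4 by 1.43 ± 0.19, and their probe ranges did not overlap.

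The BAF60 subunit, which links the complex to transcription factors, is encoded by Smarcd1, Smarcd2 or Smarcd3, and these 3 genes lay in a row from higher to lower. Smarcd1 was read by 1 probe, at 161 in control and 288 in knockdown, which is 1.79-fold higher (0.84 ± 0.21). Smarcd2 differed by 0.22 ± 0.14, with its 3 probes between 0.15 and 0.28. Smarcd3 was lower, at 63.8% of control (-0.65 ± 0.12).
Smarcd1 probe: cttcccgggcactgaggagtaaaagcgcct
Smarcd3 probe A: cccgcttagcccggctgctggggttacaca
Smarcd3 probe B: aatggcgacaagtatttccagcagattttt
Smarcd3 probe C: aagccgttagccgctacttttactgtaaga
These are again the first 30 bases of each probe, shown because the contrast of Smarcd1 with Smarcd3 rests on these probes. The probes were not compared with the transcripts of the other paralogues. Smarcd3 probes A, B and C read 1795, 2914 and 5548 in control and 1138, 1851 and 3584 in knockdown. Their differences lay between -0.66 and -0.63, so they agreed to within 0.0564, the SD between replicate spots. The Smarcd1 difference exceeded that of Smarcd3 by 1.49 ± 0.24 and that of Smarcd2 by 0.61 ± 0.25, and Smarcd2 exceeded Smarcd3 by 0.87 ± 0.19. In none of these pairs did the probe ranges overlap, although Smarcd1 rests on 1 probe.

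Brd7 and Brd9 are related bromodomain proteins that mark different forms of the complex, Brd7 the PBAF form and Brd9 the non-canonical form. Brd9 was the lowest member, at 42.0% of control (-1.25 ± 0.14). Its probes are shown because both carry the largest decrease among the members.
Brd9 probe A: agatgagatggagcttctgtattccgccta
Brd9 probe B: ctccctgacaaataatgaaccaccccacct
Probe A read 479 in control and 198 in knockdown (-1.28), and probe B read 2934 and 1256 (-1.23). Both probes were thus lower by nearly the same ratio. Probe B lies in the array's last 64 rows, and without those rows the Brd9 value was -1.28. Of all measured genes, 188 (1.15%) had a lower difference. Brd7 differed by 0.10 ± 0.09 over 5 probes, which lay between -0.10 and 0.23. The Brd7 difference exceeded that of Brd9 by 1.35 ± 0.17, with no overlap of probe ranges.

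**Figure D3:**
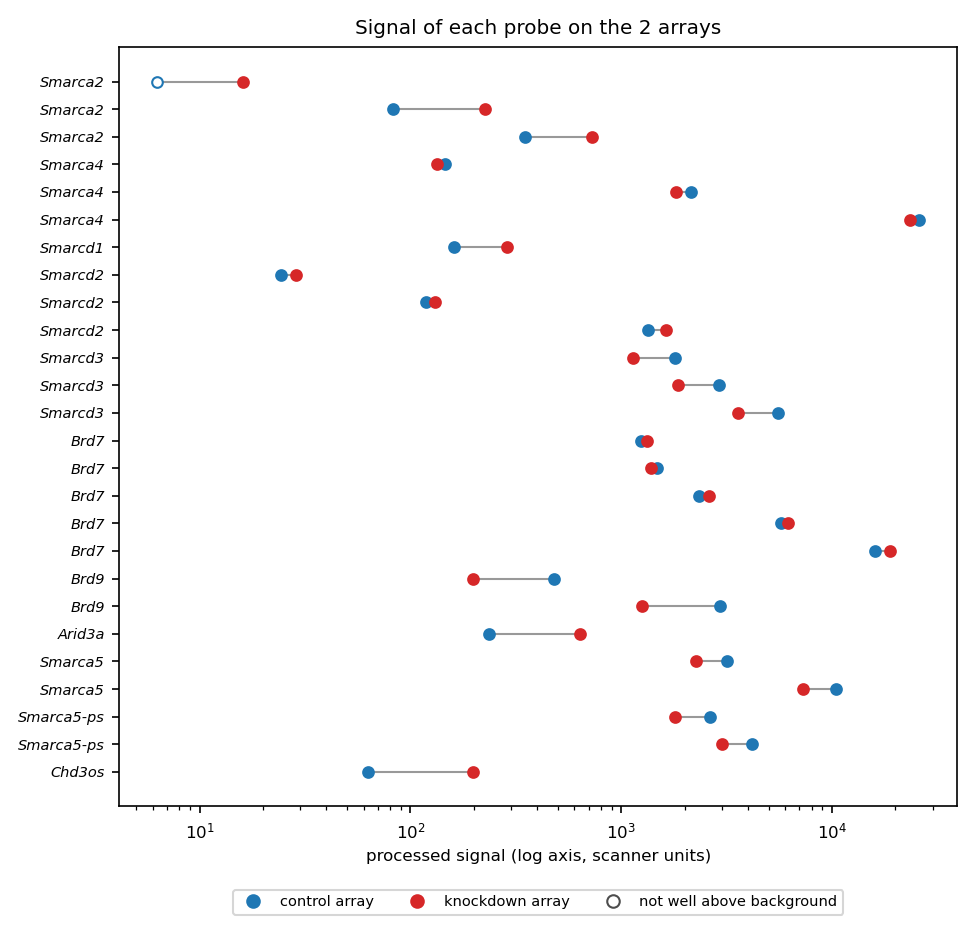
Processed signal, on a log axis in scanner units, of single probes on the control and knockdown arrays. Drawn are all probes of Smarca2, Smarca4, Smarcd1, Smarcd2, Smarcd3, Brd7, Brd9, Arid3a, Smarca5, Smarca5-ps and Chd3os. The ARID and Smarcc subunits of BAF are not drawn. The knockdown points lie to the right for Smarca2, Smarcd1, Arid3a and Chd3os and to the left for Smarcd3, Brd9, Smarca5 and Smarca5-ps; an open point, that of 1 Smarca2 probe on the control array, is not well above background.

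The other BAF subunits were within 1.5-fold. Among the large ARID subunits, which give BAF and PBAF their DNA contacts, Arid1a differed by 0.23 ± 0.20 (4747 in control and 5582 in knockdown). Arid1b differed by 0.02 ± 0.14 over 2 probes, at 440 and 464 for one and 852 and 829 for the other. A further Arid1b probe read 19.4 and 14.2 and was detected only in control. Its bound of 1.37-fold is the ratio of its own readings, and its scanner error was nearly as large as the difference (-0.46 ± 0.45). Arid2, the PBAF counterpart, read 362 and 498 with its measured probe (0.46 ± 0.20). None of these ARID subunits reached 1.5-fold.

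Smarcb1, the core subunit lost in rhabdoid tumours, differed by 0.33 ± 0.16, but its probes read 5456 and 5876 for the brighter one and 35.7 and 52.7 for the dim one. Brightness and difference thus went apart, at 0.11 for the bright probe and 0.56 for the dim one. Of the scaffold pair, Smarcc2 read 468 and 464 (-0.02 ± 0.20). Smarcc1 had a mean of 0.01 ± 0.13 over probes that disagreed. Its brightest probe read 8298 in control and 11840 in knockdown (0.51), and the others read 409 and 326 (-0.33), and 55.5 and 49.5 (-0.16). No direction can be given for Smarcc1. Smarce1 differed by -0.05 ± 0.12, with 4 probes from -0.09 to 0.00, and another probe read 15.9 and 7.67, detected only in control, where it was at least 1.22-fold higher.

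ISWI remodellers space nucleosomes evenly, and Smarca5 (SNF2H) is the ISWI ATPase of dividing cells. Smarca5 was at 70.2% of control (-0.51 ± 0.14), just short of 1.5-fold. Its probes A and B read 3187 and 10493 in control and 2267 and 7284 in knockdown. The pseudogene Smarca5-ps differed by the same amount (-0.51 ± 0.14), with probes at 2635 and 1804 and at 4156 and 3008.
Smarca5 probe A: aatggggtaaactgagagaatatcaggtgc
Smarca5 probe B: tcagacatcaggtccatctgcttactgagc
Smarca5-ps probe A: aaggtacctcggagtcctgatctacctaat
Smarca5-ps probe B: gagaaagtctgtgttcaaaaaattcaactg
The stretches are shown because a pseudogene is close in sequence to its parent, so that its probes may take up parental transcript and the pair may not be separate readings. Probes of different members shared no stretch of 15 bases. They were not compared with the parental transcript, so this cannot tell whether such uptake occurs. The other ISWI ATPase, Smarca1, was not well above background with any of 7 probes. On the control array its signals lay between 2.41 and 3.0, and on the knockdown array 6 lay between 2.58 and 3.28 and 1, in the last 64 rows, at 12.4. Bptf, the histone-reading subunit of the NURF complex, differed by -0.03 ± 0.10 over 4 probes, between -0.16 and 0.08.

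The 9 CHD ATPases, which carry chromodomains, had a median difference of -0.04 and a range from -0.51 to 0.18, and none reached 1.5-fold. Chd3 differed by 0.18 ± 0.14, Chd4 by 0.01 ± 0.14 and Chd5 by 0.16 ± 0.14. These are the alternative ATPases of the NuRD complex, which joins remodelling to histone deacetylation. The Chd4 probes read 7998 and 7108 (-0.17) and 11462 and 13038 (0.18), in opposite directions. The Chd5 probes were dim, with control signals from 24.9 to 116 and differences from -0.18 to 0.45. A further one read 18 and 14.3 and was detected only in control. Its bound of 1.26-fold is again the ratio of its own readings, and its scanner error exceeded the difference (-0.34 ± 0.45).

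Chd1 and Chd2, which act at transcribed genes, differed by -0.15 ± 0.14 and -0.04 ± 0.14. Chd7, mutated in CHARGE syndrome, read 3508 and 2671 with its bright probe (-0.39) and 29.9 and 24.7 with a dim one (-0.28), giving -0.34 ± 0.18. A further Chd7 probe read 16.8 and 13.8 and was detected only in control. Its bound of 1.22-fold is likewise the ratio of its own readings, with a scanner error above the difference (-0.29 ± 0.47). Chd8, a gene linked to autism, differed by 0.05 ± 0.10 over 4 probes. Chd6 had a mean of -0.08 ± 0.09, but its 6 probes ranged from -0.64 (259 to 166) to 0.42 (308 to 412), the widest disagreement among the CHD genes. Chd9 was lower with all 4 probes, at -0.51 ± 0.13. They read 26.2, 63.3, 213 and 590 in control and 14.1, 46.0, 182 and 431 in knockdown. Without the last 64 rows the Chd9 value was -0.68, past 1.5-fold, and with normexp it was -0.25.

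The NuRD subunits of the name rule lay close to 0. Mta1, Mta2 and Mta3, which hold the deacetylases, differed by -0.07 ± 0.20, -0.09 ± 0.20 and -0.09 ± 0.13. Mta1 read 998 in control and 953 in knockdown, and Mta2 read 9068 and 8540. The histone chaperones Rbbp4 and Rbbp7 differed by -0.05 ± 0.14 and -0.02 ± 0.12, and their brightest probes read 44096 and 41714, and 29021 and 29201. All 5 were within 0.25 of 0, and their mean differences were all slightly below 0. Within this group Mta3 was the exception among probes, from -0.36 to 0.43, the highest being a dim one (28.1 to 37.9).

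The 4 INO80, SRCAP and TIP60 genes, whose complexes exchange or place the histone variant H2A.Z, had a median of -0.05 and a range from -0.12 to 0.03. Ino80 differed by 0.03 ± 0.15, with probes at 123 and 116 and at 659 and 730. Ep400 differed by -0.12 ± 0.15, with probes at 90.8 and 78.2 and at 1875 and 1858. Srcap, the ATPase that loads H2A.Z, differed by -0.09 ± 0.14, but its probes did not agree. They are shown because 1 bright and 2 dim probes went opposite ways.
Srcap probe A: tcgctgggagtagcgtctcctttttcttca
Srcap probe B: ccaaacatgaagctgaaattgaaactcgga
Srcap probe C: agcagttaagaaatgactgctcttctaaga
The 2 dim probes read 38.4 and 33.2 (-0.21), and 50.2 and 38.9 (-0.37), and the bright one, designed on an Ensembl transcript, read 26182 and 32732 (0.32). Brd8, the bromodomain subunit of TIP60, differed by -0.01 ± 0.09. Its probes split, 4 between -0.42 and -0.13 and 1 at 0.96 (156 to 304). The one that was higher lies in the last 64 rows.

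The remaining SNF2-type ATPases act in DNA repair and replication. Smarcal1, which anneals DNA at stalled forks, differed by 0.44 ± 0.10, with 4 probes from -0.05 to 1.20. The probe at 1.20 read 150 in control and 346 in knockdown, and another read 245 and 238. Smarcad1, which acts in heterochromatin upkeep and DNA end resection, had a mean of 0.06 ± 0.14 from probes at -0.32 (278 to 224) and 0.44 (301 to 410). Chd1l (ALC1), the poly(ADP-ribose)-activated remodeller, read 654 and 483 with its measured probe (-0.44 ± 0.20). None of these 3 genes reached 1.5-fold.

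Among ARID proteins outside BAF, Arid3a (Bright), a DNA-binding factor first known from B cells, was 2.70-fold higher on the knockdown array (1.43 ± 0.20). It rests on 1 probe, which read 235 in control and 635 in knockdown.
Arid3a probe: cagcctgggggttgcacacaaactcaggta
The stretch is shown because the highest protein-coding member rests on this probe. Of all measured genes, 213 (1.3%) had a higher difference. Its relative Arid3b was higher with both measured probes, which read 157 and 283 (0.85) and 1434 and 1757 (0.29), and at 0.57 ± 0.15 it lay just under 1.5-fold. Arid3c, at 13.2 and 11.7, cleared background on neither array. Arid4a, Arid4b and Arid5a lay between -0.15 and 0.02. Arid5b, a coactivator, differed by 0.14 ± 0.13, and a further Arid5b probe read 6.64 and 16.4, detected only in knockdown, where it was at least 1.35-fold higher.

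Brd2 and Brd3, bromodomain proteins that read acetylated histones, differed by -0.13 ± 0.14 and -0.12 ± 0.14. The brightest Brd2 probe read 15317 in control and 14676 in knockdown. Brd1, a scaffold of histone acetyltransferase complexes, had probes between -0.04 and 0.13. Chd3os, annotated by the array as an opposite-strand transcript of Chd3, differed by 1.65 ± 0.22 or 3.13-fold, from 1 probe that read 63.0 and 197. With normexp its value was 0.99, below that of Arid3a (1.18). Its accession stands under the symbol Rnf227 in the RefSeq gene table used here, so the symbol is uncertain.

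Outside BAF, the Chd3, Mta1 and Rbbp4 pairs below differed little. Chd3 exceeded Chd4 by 0.17 ± 0.20, Mta1 exceeded Mta3 by 0.02 ± 0.24, and Rbbp4 minus Rbbp7 was -0.04 ± 0.19, each with overlapping probe ranges. Within BAF, Arid1a minus Arid1b was 0.22 ± 0.25 and Smarcc1 minus Smarcc2 was 0.02 ± 0.24. Of the pairs compared, those with gaps above 1 were Smarca2 and Smarca4, Smarcd1 and Smarcd3, and Brd7 and Brd9. All are in BAF, where most of the pairs compared lay. Arid3a (1.43) and Arid3b (0.57), outside BAF, were not compared as a pair, and their probe ranges did not overlap. No paralogue difference was tested, because each group was 1 array.

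Several members move with how their probes and background are treated. Brd9 stayed at least 2-fold lower and Arid3a at least 2-fold higher in all 10 settings, the 9 alternatives and the one used above. Smarca2 ranged from 0.94 to 1.29, the lowest value coming with normexp, and Chd3os from 0.99, also with normexp, to 1.65. Smarcd1 (0.65 to 0.84) and Smarcd3 (-0.66 to -0.62) stayed past 1.5-fold in all 10. Smarca5 ranged from -0.53 to -0.47. By contrast Srcap ranged from -0.29 to 0.32 and Brd8 from -0.42 to 0.14, so neither has a direction here.

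**Figure D4:**
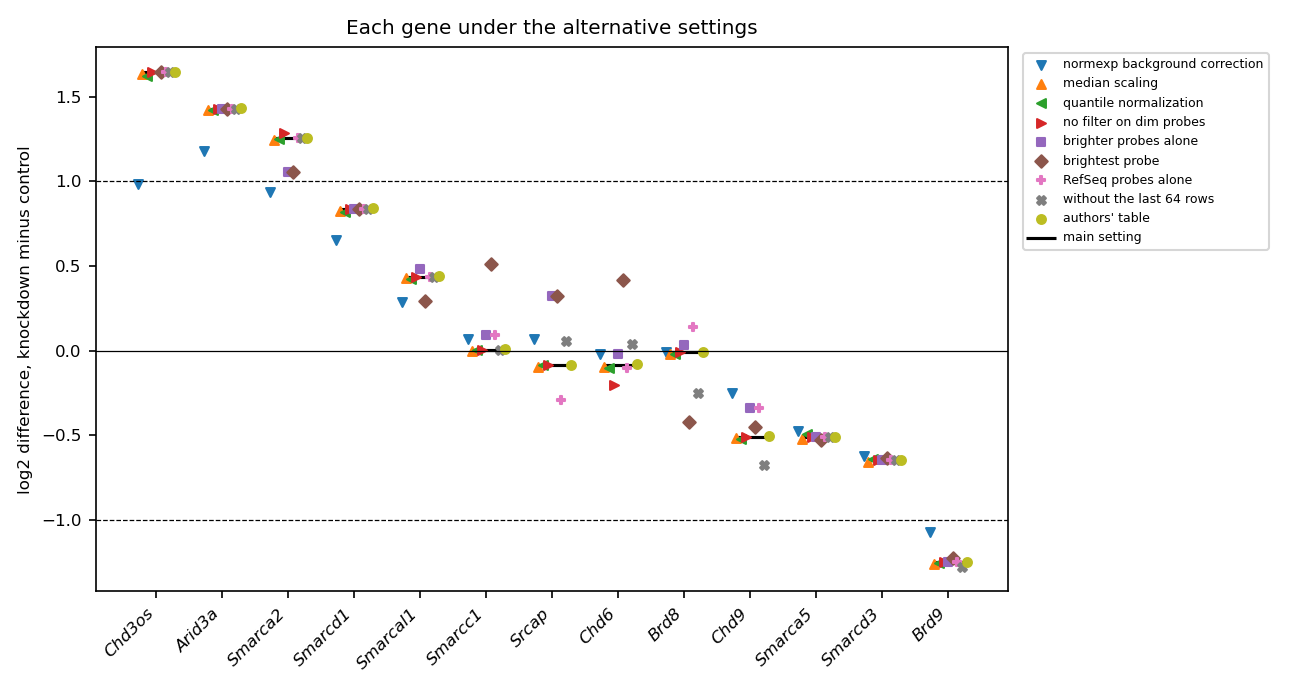
Log2 difference, knockdown minus control, of 13 members under the setting used in the text (black bar) and 9 alternatives (symbols), with dashed lines at 2-fold. Brd9 stays below the lower line and Arid3a above the upper one, whereas Srcap, Chd6, Smarcc1 and Brd8 have values on both sides of 0.

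The partner genes of the same complexes, which the name rule does not hold, were read in the same way. Of 73 such genes 71 were measured, with a median of -0.03, and 63 (88.7%) differed by less than 1.5-fold, beside 80.5% of all genes. Among BAF and PBAF partners (15 of 17 measured, median 0.01), Bcl11b, a zinc finger subunit, was higher by 1.24 ± 0.16 with probes at 0.98 and 1.49. Its brightest signals were low, at 131 in control and 368 in knockdown, and no normexp value is given for partners. Dpf3, a histone reader, was lower by -0.59 ± 0.15, but its probes stood at -1.03 and -0.16. The neuronal actin-related subunit Actl6b and Bcl11a were not measured. All 7 NuRD partners lay between -0.34 and 0.28, all within 1.5-fold.

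Of the 8 ISWI partners (median 0.08), Baz2a, the NoRC subunit that silences ribosomal genes, was higher by 0.60 ± 0.12. Baz1b, the WICH subunit, was lower at -0.66 ± 0.22, with probes at -1.02 and -0.30. The 28 INO80, SRCAP and TIP60 partners had a median of -0.10. Of these, Ruvbl1, an AAA+ ATPase common to the complexes, was lower at -0.81 ± 0.20, from 1 probe. Its partner Ruvbl2 differed by -0.01 ± 0.15. Mrgbp was lower at -0.63 ± 0.14, with both probes in the last 64 rows. Of 13 other SNF2 ATPases (median -0.10), Ercc6l2 was higher (0.63 ± 0.13; probes 0.06 to 1.11). Hells, which supports DNA methylation in dividing cells, was lower at -0.63 ± 0.20, also from 1 probe.

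**Figure D5:**
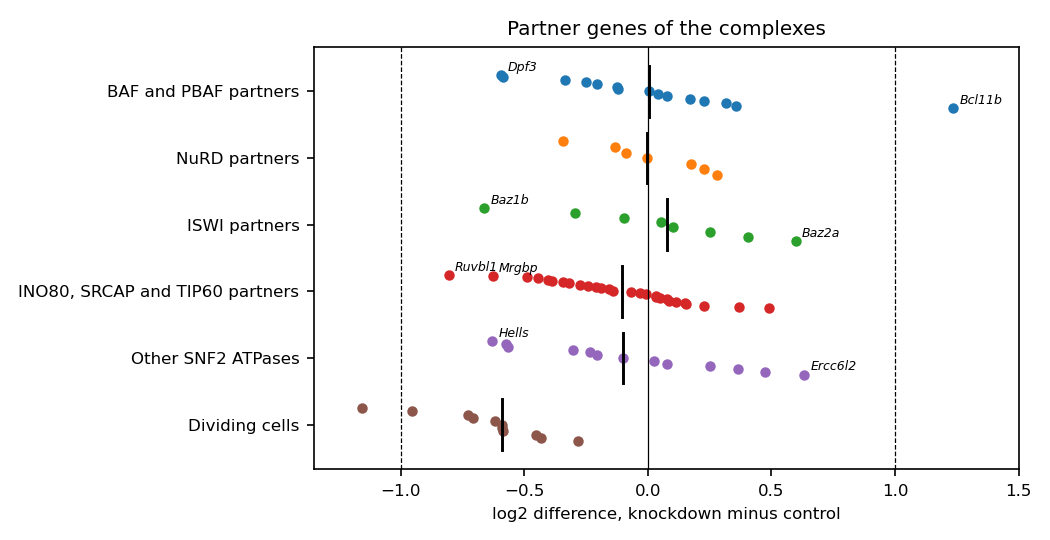
Log2 difference, knockdown minus control, of each measured partner gene (points), by complex, with genes of dividing cells as the lowest group. Black bars are medians and dashed lines mark 2-fold; Bcl11b alone among the partners lies past 2-fold, and all 11 genes of dividing cells lie below 0.

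Genes of dividing cells were lower beside these differences. All 11 lay below 0 on the knockdown array, with a median of -0.59, 8 of them at least 1.5-fold. The summed signal of their brightest probes was 182821 in control and 124282 in knockdown, and Mki67 differed by -0.73. Their part in the lower values of Smarca5, Hells and Ruvbl1 was not tested, and in bulk RNA fewer cells of a kind and less RNA per cell cannot be told apart. Of 6 neural stem cell markers 4 were measured, with a median of -0.11 and summed signals of 114570 and 104715. Vim gave most of these sums (96090 and 88538), with Nes next (18174 and 15868), while Msi1 and Prom1 were dim. Nes and Vim were bright, while the single Sox2 and Fabp7 probes did not clear background, so the label rests on part of its markers.

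Markers of other cell types were partly measured. Of 6 astrocyte markers 3 were measured (median 0.94, summed signals 1979 and 4181), and Gfap and Slc1a3 were not. Most of that sum was Aldoc (1830 and 3927), and Slc1a2 differed by 0.04. The median was that of Aqp4, whose measured probes stood at -0.02 and 1.90. S100b (9.22 and 122) was detected only in knockdown, whereas Gfap (brightest signals 23.2 and 15.1) was detected only in control. Of 7 oligodendrocyte lineage markers 5 were measured (median 0.14, 2104 and 2529), and Olig2 (6.28 and 53.2) was detected only in knockdown. Of 8 neuronal markers 4 were measured (median 0.24, 6023 and 6965). Of 6 microglial and immune markers 3 were measured (median 0.22, 8108 and 10286), with Aif1, Cx3cr1 and Tyrobp not above background. Of 6 endothelial and mural markers 4 were measured (median 0.36, 188 and 230), and Kdr and Cldn5 were not. The measured ones were dim and went apart, with Cdh5 (84.7 and 50.4) at -0.75 and Pdgfrb (16.6 and 76.1) at 2.19. The part of these cell types in the members' differences was not tested.

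Stat5b binds palindromic sites of the form TTCNNNGAA, which read the same on both strands, so the members' promoters were searched for them. The windows run from 250 bases before to 50 after each start, from RefSeq on GRCm38.p6, and hold 38 of the members. The motif lay in 4 of 47 member windows (8.51%), beside 2726 of 32851 windows over all genes (8.3%). The 4 stretches are shown, read on the gene's strand, with the motif in capitals. Among the 38 members searched, only these genes had it.
Smarcad1 (chr6:65043200-65043228, plus strand): ctgcagctagTTCATTGAAagctgtcagc
Arid5b (chr10:68278880-68278908, minus strand): aaattgagtcTTCGAGGAAatattaggat
Arid4b (chr13:14063554-14063582, plus strand): tggactacaaTTCCCAGAAagtattgagg
Brd2 (chr17:34120027-34120055, minus strand): attactttggTTCGGGGAAgacgaggtta
These 4 genes differed by 0.06, 0.14, 0.02 and -0.13, all within 1.5-fold. The windows of Smarca2, Brd9, Smarcd1, Smarcd3 and Smarca5 held no such letters, and Arid3a was not in the table. A match is a description of letters in a window, and no match says only that they are not in it.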

How the data were processed

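Per the file headers, spots were read with Agilent Feature Extraction 12.1.0.3, protocol GE1_1200_Jun14 and build mm9. For each spot the deposited files give a processed intensity. This intensity is background-corrected by that software and unscaled. The deposited error and flag columns (well above background, saturated, outlier; values 0 or 1, other) were used as they stand. The authors' table holds log2 values: each column equalled log2 of the processed signal minus 1 constant (8.941 and 8.939) to within 0.001 for 144 of 144 member probes. Its medians were -3.83 and -3.83, and it served as an alternative.

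Signals were floored at 1, taken to log2, averaged over spots and centred on each array's 75th percentile. Well above background were 59.5% and 58.6% of 56605 probes. Across genes, which are not independent replicates, the arrays correlated at 0.982. The number of arrays limits the precision. With 1 array a group no p-value was computed, and 2-fold and 1.5-fold are rules of size. The members and gene lists were chosen with earlier results of these data known. Named with values were members past 1.5-fold, ATPases, paralogue sets, members with probes at least 1 apart, and members above background on 1 array alone; the remainder are given by ranges. The values of 1 member are not reported here, though it is counted in the totals. Partners were named past 1.5-fold, and Smarcb1, Arid3b, Ruvbl2, Actl6b and Bcl11a were added after their values were seen. Of the member accessions 112 matched RefSeq, 111 under the same symbol.

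Alternatives were normexp on median signal and local background (offset 50), median and quantile scaling, no filter on dim probes, brighter probes, the brightest probe, RefSeq probes, leaving out the last 64 rows, and the authors' table. The computation used Python 3.11.15, numpy 2.4.6, pandas 2.3.3 and limma 3.58.1 and was tested on simulated data.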

Additional observations from a re-analysis of the deposited data

Results flagged for a closer look

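Signal outside the gene values was flagged for 2 probes of members. They were well above background on the knockdown array but not on the control array and so entered no gene mean. The Arid5b probe read 16.4 on the knockdown array and 6.64 on the control array. The Smarca2 probe designed on transcript variant 1 read 16.1 and 6.31. Both signals are dim, and neither has a replicate.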

How the results depend on the processing

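Over the 9 alternatives the median of the members stayed between -0.03 and 0.02, and 1 member, Brd9, was at least 2-fold lower under each. At least 2-fold higher were 3 members in the main setting and 1 with normexp, where Smarca2 (0.94) and Chd3os (0.99) fell short. Over all genes normexp left 190 higher and 168 lower. Of 439 values of single members under the alternatives, 356 moved by less than the SD between replicate spots and 83 by more, and no member past 1.5-fold changed sign. Without the filter on dim probes the median of all genes moved to 0.10. With brighter probes alone Chd9 was -0.34, Mta3 -0.35 and Smarcb1 0.11, and Chd3os had no value. No array could be left out, since each group had 1. No paired analysis was possible because each group is 1 array.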
